A study of Mus musculus with 16 samples.

Results

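Potassium channel subunits were measured in cells sorted from the olfactory mucosa of S100a5-tauGFP mice. The 89 genes were those with a symbol that begins with Kcn followed by a letter, out of 19505 named genes on Clariom S mouse arrays; 1 antisense symbol was left out, and none of the 89 had more than 1 probe set. By symbol, 26 were pore subunits of voltage-gated (Kv) channels and 10 were silent Kv subunits. Inward rectifiers numbered 15, two-pore channel subunits 14 and auxiliary subunits 17. Another 7, with symbols in Kcnn, Kcnt or Kcnu, were grouped as calcium- or sodium-activated pore subunits, a class name that need not hold for Kcnu1. Kcnmb3 and Kcnn2 were its lead genes, known as such from earlier results of these data.

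The mice carried a reporter in which the promoter of S100a5, a calcium-binding protein gene of olfactory sensory neurons, drives a green fluorescent protein fused to tau. All groups shared this reporter, so GFP+ means only that a cell carried reporter signal at the sort. Per the labels, 24 mice of both sexes, aged 7 to 12 weeks, were kept singly in clean air chambers for 40 h. From 26 h they received 10 s pulses every 20 min of either filtered air (vehicle) or 2-hexanone, a small ketone (odor). Mucosa from 3 mice made 1 pool, and each of 4 pools per treatment was sorted into GFP+ and GFP- cells, giving 4 groups of 4 arrays: vehicle GFP+, vehicle GFP-, odor GFP+ and odor GFP-. The GFP+ and GFP- arrays of a pool came from the same mice, whereas the labels do not say that a vehicle pool and an odor pool of the same number share anything.

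Potassium channels let potassium leave the cell and so pull the membrane back towards rest. In olfactory sensory neurons, cyclic nucleotide-gated and calcium-activated chloride channels depolarise the cilia, and voltage-gated and calcium-activated potassium channels then shape the firing that follows. Pore subunits form the channel, silent Kv subunits open only when built into a channel with other Kv pores, and auxiliary subunits change the gating or traffic of a pore. Two-pore channels and inward rectifiers carry resting current in many cell types, including epithelial and immune cells.

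Promoter windows are shown for Kcnmb3 and Kcna6, called higher in GFP+ cells in both treatments further on, and for Kcnk1 and Kcnk5, called lower in both under every alternative in which they were tested. Kcng1, Kcnh3 and Kcnn2, also higher in both, are named only. Each window is the RefSeq window of 250 bases before to 50 after the transcript start on assembly GRCm38.p6, printed 5′ to 3′ on the strand of the gene, and capitals mark CG dinucleotides. Kcnmb3 (chr3:32491920-32492219, minus strand) and Kcna6 (chr6:126740625-126740924, minus strand) were higher in GFP+ cells and hold 8 CG each. Kcnk1 (chr8:125994852-125995151, plus strand) and Kcnk5 (chr14:20181733-20182032, minus strand) were lower in GFP+ cells and hold 10 and 26.
Kcnmb3: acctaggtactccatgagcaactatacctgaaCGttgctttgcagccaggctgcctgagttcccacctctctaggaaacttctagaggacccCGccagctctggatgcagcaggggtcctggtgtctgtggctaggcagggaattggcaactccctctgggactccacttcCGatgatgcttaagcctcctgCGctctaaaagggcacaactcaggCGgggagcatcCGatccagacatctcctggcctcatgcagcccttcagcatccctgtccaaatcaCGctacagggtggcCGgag
Kcna6: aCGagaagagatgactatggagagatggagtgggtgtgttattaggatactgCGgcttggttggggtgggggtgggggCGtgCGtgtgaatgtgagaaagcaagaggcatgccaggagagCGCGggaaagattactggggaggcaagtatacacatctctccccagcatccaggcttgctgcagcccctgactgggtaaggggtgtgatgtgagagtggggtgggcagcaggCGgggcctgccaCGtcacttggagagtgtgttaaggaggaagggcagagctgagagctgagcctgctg
Kcnk1: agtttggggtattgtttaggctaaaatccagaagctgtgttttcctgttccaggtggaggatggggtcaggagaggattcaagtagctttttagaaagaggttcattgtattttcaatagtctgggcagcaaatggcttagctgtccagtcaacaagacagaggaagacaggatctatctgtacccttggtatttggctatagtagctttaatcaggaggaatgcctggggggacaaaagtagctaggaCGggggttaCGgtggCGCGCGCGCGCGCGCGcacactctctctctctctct
Kcnk5: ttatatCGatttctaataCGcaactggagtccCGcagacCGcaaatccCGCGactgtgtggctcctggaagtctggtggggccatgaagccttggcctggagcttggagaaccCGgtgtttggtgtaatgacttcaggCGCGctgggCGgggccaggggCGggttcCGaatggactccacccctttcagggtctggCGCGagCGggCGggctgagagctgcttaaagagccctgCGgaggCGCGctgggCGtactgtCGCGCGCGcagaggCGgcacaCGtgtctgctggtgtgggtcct

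RefSeq gave 93 such windows for 68 of the 89 subunits. Their median GC content was 58.0% and their median number of CG was 9, against 52.7% and 7 over all 32851 promoter windows. Both strands were searched for 2 motifs tied to olfactory neurons or to activity, each its own reverse complement: TAATTA, bound by LIM homeodomain factors, and TGACGTCA, the cyclic AMP response element. Neither occurred in the 93 windows, while 5.29% and 1.79% of all windows held them. Exact letters in a short window were searched, and nothing about the factors follows from their absence.

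Precision was set by the 4 arrays in each group, and all values are deposited log2 signals. The highest value in the table was 19.81, above the 16 bits of a scanner, so an unstated transformation acts on every difference and fold. Each array's background floor was the highest of 23 antigenomic background bins, which lay at 6.16 to 7.33. The sort marker S100a5 stood at 14.54 to 15.60 in vehicle GFP-, 16.11 to 17.02 in vehicle GFP+, 14.89 to 15.23 in odor GFP- and 16.17 to 16.98 in odor GFP+, with no overlap between fractions. Omp, which marks mature olfactory sensory neurons, had group means of 19.36 to 19.45, close to the top of the scale. GFP- cells also held other cell types: all 9 immune markers measured were lower in GFP+ cells in both treatments, with a mean level of 11.71 to 13.95 on the GFP- arrays and 4.82 to 5.61 on the GFP+ arrays. All 6 microvillous markers, 5 of 6 sustentacular and 5 of 6 immature neuron markers and both erythroid markers were lower as well. Of 10 mature neuron markers 3 were higher in GFP+ cells in vehicle and 2 in odor, and none was lower. The sort marker S100a5 was among them in both treatments, and its call is not independent of the sort. The others called were Ano2 in both treatments and Adcy3 in vehicle. The part that the cell types of these lists play in the subunit differences was not tested beyond the values given beside each result. In such samples, fewer cells of a type cannot be told apart from less RNA per cell.

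Most of the family was dim, as were most probe sets. The median of all 22206 probe sets was 5.70 to 6.12 on the 16 arrays, under the floor of each. The counts below were not made over all probe sets, so they do not set these subunits apart from other genes. On all 16 arrays, 17 subunits lay above the floor: the Kv pores Kcna2, Kcna5, Kcna6, Kcnc4, Kcnh2, Kcnh3, Kcnh4 and Kcnq1, the silent subunit Kcns3, the calcium-activated Kcnn1 and Kcnn2, the inward rectifier Kcnj2, the two-pore Kcnk10, and the auxiliary Kcnab2, Kcnip4, Kcnmb2 and Kcnmb3. Another 9 lay above it on some arrays, and 63 on none. The dim share was largest among inward rectifiers (13 of 15 above the floor on no array) and two-pore subunits (12 of 14). A probe set under the floor has only an upper bound on its level, so for such subunits the differences below are given without a fold.

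The first comparison set GFP+ against GFP- cells in mice given filtered air. Higher in GFP+ cells were 10 of 89 subunits (11.2%, against 5.83% of all 22206 probe sets called higher), and 5 were lower (5.62%, against 9.86% of all called lower). A call is a Benjamini-Hochberg adjusted p below 0.05 in limma over all probe sets. The higher subunits were the Kv pores Kcna5, Kcna6, Kcnc1, Kcnh2 and Kcnh3, the silent subunits Kcng1, Kcng3 and Kcng4, the auxiliary Kcnmb3 and the calcium-activated Kcnn2. The lower ones were the two-pore Kcnk1, Kcnk5 and Kcnk6, the calcium-activated Kcnn4 and the inward rectifier Kcnj3. In the same comparison under 2-hexanone 9 were higher (10.1%, against 5.29% of all) and 7 lower (7.87%, against 9.56% of all). The median difference over the 89 was 0.18 in vehicle and 0.21 in odor, and that over all probe sets was 0.14 in both.

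The counts followed the scaling of the arrays. With each array centred on its median, which raised the median difference of all probe sets from 0.14 to 0.50 (vehicle) and 0.49 (odor), 44 subunits were higher (49.4%, against 40.5% of all probe sets) and 4 lower (4.49%, against 7.88%) in vehicle. In odor the same scaling gave 42 higher (47.2%, against 38.4%) and 4 lower (4.49%, against 7.76%). Whether a given subunit that was not called before centring passed with it is not given below. With quantile normalization they were 12 higher (13.5%, against 8.88%) and 5 lower (5.62%, against 9.24%) in vehicle, and 10 (11.2%, against 8.35%) and 7 (7.87%, against 9.05%) in odor. Leaving out vehicle pool 1, 2 or 4 left 6 higher in vehicle (6.74%, against 5.01%, 3.63% and 3.34% of all probe sets). Leaving out odor pool 2, 3 or 4 left 5, 4 or 3 higher in odor (5.62%, 4.49% and 3.37%, against 3.27%, 3.6% and 3.16%). Leaving out odor pool 1, 2, 3 or 4 left 4, 4, 4 or 2 lower (4.49% and, without pool 4, 2.25%, against 7.54% to 8.35%).

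In vehicle 13 subunits had all 4 GFP+ arrays above all 4 GFP- arrays (14.6%, against 9.01% of all probe sets) and 6 had them all below (6.74%, against 10% of all). In odor these were 13 (14.6%, against 9.4%) and 7 (7.87%, against 10.6%).

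Both treatments called 5 subunits higher: Kcna6, Kcng1, Kcnh3, Kcnmb3 and Kcnn2, which are 50% of those called in vehicle and 55.6% of those called in odor. Lower in both were Kcnj3, Kcnk1, Kcnk5 and Kcnn4, or 80% and 57.1%. The vehicle and odor sorts share no array, and the differences of 72 of 89 subunits had the same sign in both (Pearson r = 0.88 over the 89 genes, which are not independent replicates and share the arrays of each sort). The shared calls, signs and correlation were not computed over all probe sets, so they do not set these subunits apart from other genes.

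**Figure D1:**
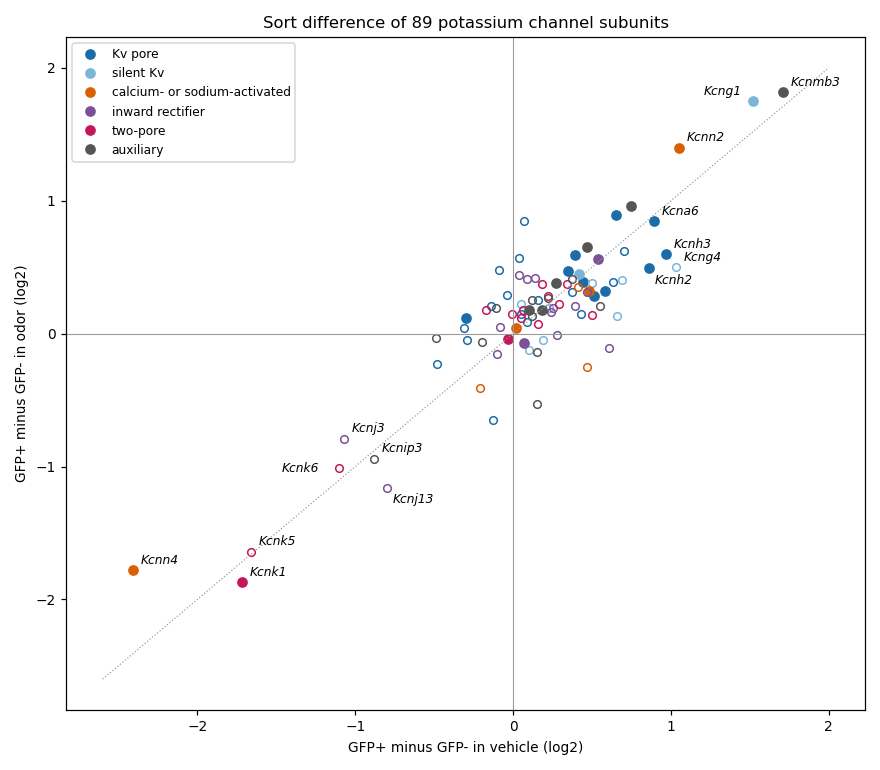
Each point is 1 of 89 potassium channel subunits, placed by its log2 difference GFP+ minus GFP- in vehicle (horizontal axis) and in odor (vertical axis); colours give the channel class, filled points had at least 1 array above the background floor, open points none, and the dotted line marks equal differences. Kcnmb3, Kcng1 and Kcnn2 lie farthest to the upper right, and Kcnk1, Kcnk5 and Kcnn4 farthest to the lower left.

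Kcnmb3 encodes an auxiliary beta subunit of the large-conductance calcium-activated (BK) potassium channel. In vehicle it stood at 13.11, 12.83, 13.33 and 12.18 in GFP- pools 1 to 4 and at 14.88, 14.29, 15.08 and 14.03 in GFP+ pools. In odor it stood at 12.33, 12.87, 12.65 and 13.09 in GFP- and at 14.01, 14.87, 14.35 and 14.99 in GFP+. Every GFP+ array lay above every GFP- array, and within pools the difference was 1.46 to 1.85 in vehicle and 1.68 to 2.01 in odor. The difference was 1.71 ± 0.29 (3.27-fold, adjusted p = 0.000314) in vehicle and 1.82 ± 0.29 (3.53-fold, adjusted p = 0.000159) in odor. Here and below, ± gives the SE from the limma fit of group means, with 4 pools per group. That fit does not pair the fractions of a pool, and its spread is estimated over all 16 arrays. Both calls held under all 18 alternatives run. Of the other BK auxiliary subunits, Kcnmb2 differed by 0.18 ± 0.15 in each treatment (adjusted p = 0.499 and 0.493) and Kcnmb4 by 0.10 ± 0.21 and 0.18 ± 0.21 (adjusted p = 0.803 and 0.639).

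Kcnn2 encodes a small-conductance calcium-activated potassium channel. In vehicle it stood at 11.28, 11.18, 11.21 and 11.32 in GFP- and at 12.41, 12.17, 12.08 and 12.52 in GFP+ pools. In odor it stood at 11.05, 11.35, 11.55 and 11.74 in GFP- and at 12.53, 12.93, 12.66 and 13.18 in GFP+. The fractions did not overlap in either treatment. The difference was 1.05 ± 0.19 in vehicle (2.06-fold, adjusted p = 0.000517) and 1.40 ± 0.19 in odor (2.64-fold, adjusted p = 2.1e-05), and both calls held under all 18 alternatives. Its relative Kcnn1, above the floor on every array, was higher in the GFP+ array of all 8 pools but did not pass (0.48 ± 0.21, adjusted p = 0.132 in vehicle; 0.32 ± 0.21, adjusted p = 0.347 in odor).

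**Figure D2:**
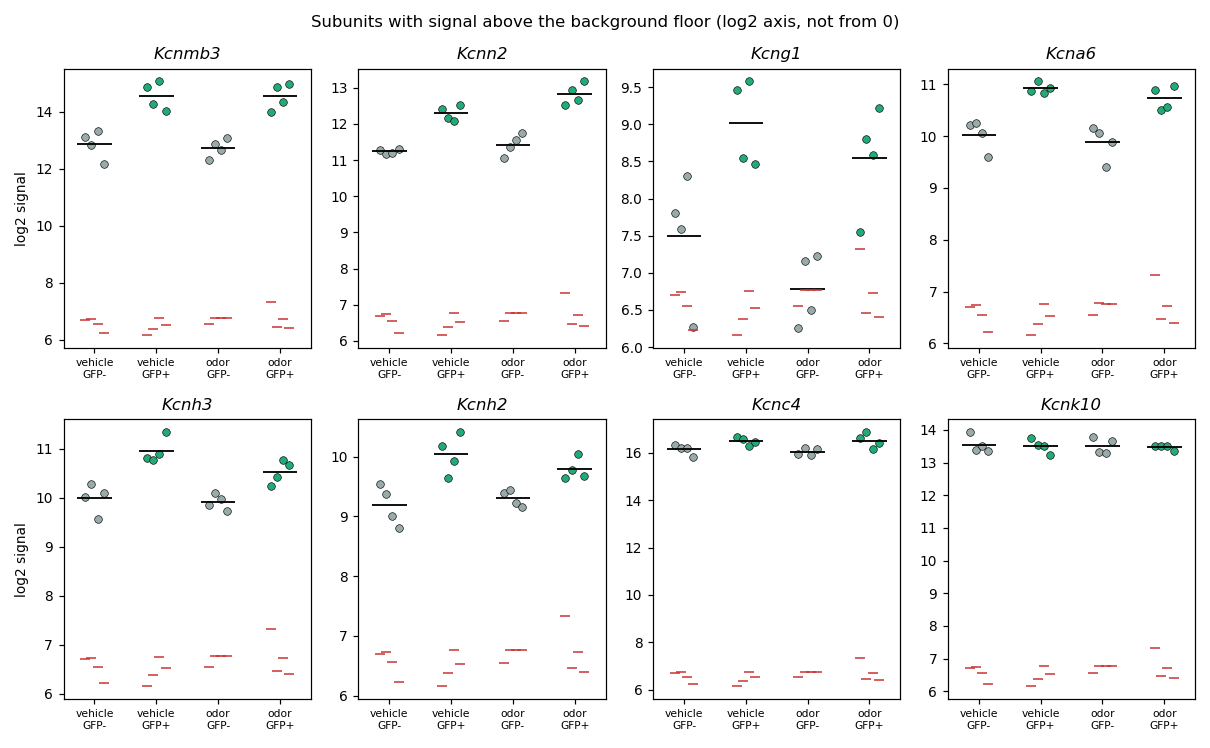
Log2 signal of 8 subunits on each of the 16 arrays (points, GFP- in grey and GFP+ in green), with group means as black bars and the background floor of each array as red dashes; each panel has its own log2 axis, which does not start at 0. Kcnmb3, Kcnn2, Kcna6 and Kcnh3 have no overlap between the fractions in either treatment, and Kcnk10 has group means of 13.48 to 13.54.

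Among Kv pores, 5 of 26 were higher in vehicle (19.2%, against 5.83% of all probe sets) and none lower (against 9.86%). In odor 5 were higher (19.2%, against 5.29%) and 1 lower (3.85%, against 9.56%). Kcna6, a Shaker-type delayed rectifier, stood at 10.22, 10.25, 10.06 and 9.59 in vehicle GFP- and at 10.88, 11.06, 10.84 and 10.93 in vehicle GFP+ pools. In odor the values were 10.16, 10.07, 9.41 and 9.89 against 10.90, 10.51, 10.56 and 10.96. Within each treatment the lowest GFP+ array exceeded the highest GFP- array. The mean difference was 0.89 ± 0.20 in vehicle (1.86-fold, adjusted p = 0.00365) and 0.85 ± 0.20 in odor (1.80-fold, adjusted p = 0.0056). The odor call was lost without odor pool 4 (0.77, adjusted p = 0.0502), and the vehicle call held under all alternatives.

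Kcnh3, an ether-a-go-go-like (Elk) pore of forebrain neurons, stood at 10.02, 10.28, 9.56 and 10.09 in vehicle GFP- and at 10.81, 10.77, 10.90 and 11.34 in vehicle GFP+ pools. The difference was 0.97 ± 0.19 (1.96-fold, adjusted p = 0.00138) and held under all alternatives. Under odor its values were 9.86, 10.10, 9.98 and 9.74 against 10.25, 10.42, 10.77 and 10.66, a difference of 0.60 ± 0.19 (1.52-fold, adjusted p = 0.0427). The odor call was lost in 9 of 18 alternatives, among them those without odor pool 1, 2, 3 or 4 (adjusted p = 0.0672, 0.0717, 0.16 and 0.223), without vehicle pool 1 or 2 (0.0563 and 0.05) and with the pool as a fixed block (0.0518).

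Kcnh2, the ERG pore best known for repolarising the heart, stood at 9.55, 9.37, 9.01 and 8.80 in vehicle GFP- and at 10.17, 9.64, 9.93 and 10.41 in vehicle GFP+ pools. These groups did not overlap and differed by 0.86 ± 0.20 (1.81-fold, adjusted p = 0.00572), a call lost without vehicle pool 4 (0.60, adjusted p = 0.0848). In odor the GFP+ pools were again all above the GFP- pools (9.65 to 10.05 against 9.15 to 9.44), by 0.49 ± 0.20 (adjusted p = 0.127). Kcna5, another Shaker-type pore, was higher by 0.51 ± 0.17 in vehicle (13.27 to 13.82 against 12.91 to 13.12, adjusted p = 0.0425), a call lost in 9 of 18 alternatives, among them the leaving out of any vehicle pool or of odor pool 1, 2 or 3 (adjusted p up to 0.173). In odor it differed by 0.28 ± 0.17 (adjusted p = 0.304).

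The remaining Kv pores with signal on every array did not pass in either sort. Kcnc4, a Shaw-type pore, stood at 15.82 to 16.33 in vehicle GFP- and 16.29 to 16.66 in vehicle GFP+ pools and differed by 0.35 ± 0.18 (adjusted p = 0.227), and by 0.47 ± 0.18 in odor (adjusted p = 0.099). Its GFP+ array was the higher in all 8 pools. Kcna2 (0.58 ± 0.23 in vehicle, adjusted p = 0.112, or 0.0343 with the pool as a fixed block) and Kcnh4 (0.44 ± 0.19 in vehicle, adjusted p = 0.142) were likewise higher in GFP+ cells in 7 and 8 of 8 pools. Kcnd1, an A-type pore under the floor, passed in vehicle with the pool as a random block (0.70, adjusted p = 0.0493, against 0.0798 without it). It did not pass with the pool as a fixed block. Kcnq1, a pore of heart and secretory epithelia, was lower in 5 pools and higher in 3 (-0.30 ± 0.28, adjusted p = 0.528 in vehicle).

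Kv pores at or under the floor also gave calls, which rest on low signal. Kcnc1, under the floor on all arrays, was higher in vehicle by 0.63 ± 0.21 (3.91 to 4.56 in GFP- and 4.50 to 5.22 in GFP+ pools, adjusted p = 0.0484), a call lost in 10 of 17 alternatives, among them those without vehicle pool 1, 2 or 4 and without odor pool 1, 3 or 4 (adjusted p up to 0.314) and with the pool as a fixed block (0.055). Kcna1, above the floor on 1 vehicle GFP+ array alone, was higher in odor by 0.89 ± 0.29 (4.35 to 4.89 in GFP- and 5.19 to 6.06 in GFP+ pools, adjusted p = 0.0495), and the leaving out of any odor pool or of vehicle pool 2 or 4 ended that call (adjusted p up to 0.303), as did the pool as a fixed block (0.0503). Kcnh8, an Elk pore, was higher in odor by 0.85 ± 0.25 (4.40 to 5.51 against 5.31 to 6.23, which overlap; adjusted p = 0.0288), and not without odor pool 3 or 4 (adjusted p = 0.118 and 0.167). Kcnc2 was higher in odor by 0.57 ± 0.17 (adjusted p = 0.0312; lost in 7 of 16 alternatives, among them those without odor pool 2, 3 or 4, with adjusted p up to 0.188, and that with the pool as a fixed block, 0.0515). Kcna3, the pore best known from T cells, was the lower one in odor (3.88 to 4.30 in GFP+ against 4.57 to 4.98 in GFP- pools; -0.65 ± 0.19, adjusted p = 0.025), and it did not pass without any 1 of the 4 odor pools (adjusted p from 0.0502 to 0.131) or with arrays centred (-0.29, adjusted p = 0.184).

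Of 10 silent Kv subunits, 3 were higher in vehicle (30%, against 5.83% of all probe sets) and 1 in odor (10%, against 5.29%). None was lower, against 9.86% and 9.56% of all. Kcng1, which modifies channels built from Kcnb pores, stood at 7.81, 7.59, 8.31 and 6.27 in vehicle GFP- and at 9.46, 8.55, 9.58 and 8.47 in vehicle GFP+ pools. In odor it stood at 6.26, 7.16, 6.50 and 7.22 in GFP- and at 7.55, 8.80, 8.59 and 9.22 in GFP+ pools. The fractions did not overlap, and all 8 pools had the higher value in GFP+ cells. The difference was 1.52 ± 0.42 in vehicle (2.87-fold, adjusted p = 0.0166), not called without vehicle pool 1 (1.48, adjusted p = 0.0575). In odor it was 1.75 ± 0.42 (adjusted p = 0.00617), with 2 of 4 GFP- arrays above the floor, and 1.61 with the others raised to it. Kcng4 (1.03 ± 0.23, adjusted p = 0.0041) and Kcng3 (0.66 ± 0.20, adjusted p = 0.0338) were higher in vehicle with every array under the floor; Kcng4 lost its call without vehicle pool 2 (adjusted p = 0.0615), and Kcng3 without any 1 of the 4 vehicle pools (adjusted p from 0.0503 to 0.157) and with the pool as a fixed block (0.059). Kcns3, bright on every array, differed by 0.42 ± 0.17 in vehicle (adjusted p = 0.111) and 0.45 ± 0.17 in odor (adjusted p = 0.089, and just past the threshold with the pool as a random block, 0.05). Kcnf1, under the floor on every array, passed in vehicle with the pool as a random block (0.69, adjusted p = 0.0319, against 0.0546 without it).

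Of 14 two-pore subunits, 3 were lower in vehicle (21.4%, against 9.86% of all probe sets) and 2 in odor (14.3%, against 9.56%). None was higher in either, against 5.83% and 5.29%. Kcnk1, a weak inwardly rectifying leak channel found in many epithelia, stood at 6.68, 6.39, 6.71 and 6.66 in vehicle GFP- and at 5.08, 4.16, 4.95 and 5.37 in vehicle GFP+ pools. In odor it stood at 6.92, 6.93, 7.15 and 7.27 in GFP- and at 5.24, 5.07, 4.84 and 5.62 in GFP+ pools. Every GFP+ array lay under its floor, while 2 of 4 vehicle and 4 of 4 odor GFP- arrays lay above theirs. The difference was -1.72 ± 0.23 in vehicle (adjusted p = 2.17e-05) and -1.87 ± 0.23 in odor (at least 1.26-fold lower, adjusted p = 7.85e-06). No fold is given in vehicle, since the GFP- mean there includes arrays under the floor. Here "at least" sets the GFP- mean against the mean floor of the GFP+ arrays, and both calls held under all 18 alternatives.

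Kcnk5, an alkaline-activated leak channel of epithelia and lymphocytes, lay under the floor on all 16 arrays. It stood at 4.97, 4.65, 4.83 and 5.44 in vehicle GFP- and at 3.29, 3.27, 3.59 and 3.11 in vehicle GFP+ pools (-1.66 ± 0.26, adjusted p = 0.000139). Under odor the values were 5.17, 4.95, 3.76 and 5.14 against 3.15, 3.01, 3.27 and 3.03 (-1.64 ± 0.26, adjusted p = 0.000156). The groups did not overlap, and both calls held under all 17 alternatives in which it was tested. Kcnk6 was lower in vehicle (4.28 to 5.09 in GFP- and 3.43 to 4.06 in GFP+ pools; -1.10 ± 0.34, adjusted p = 0.0321), and that call was lost without any 1 of the 4 vehicle pools (adjusted p from 0.0528 to 0.152). In odor it differed by -1.01 ± 0.34 (adjusted p = 0.0517), and passed with the pool as a fixed or random block (0.0333 and 0.0273). The bright member Kcnk10, a mechanically gated leak channel, had group means of 13.48 to 13.54 and differed by -0.03 ± 0.18 in vehicle and -0.04 ± 0.18 in odor (adjusted p = 0.934 and 0.914).

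Kcnn4, the intermediate-conductance calcium-activated channel known from red cells, lymphocytes and secretory epithelia, went the other way from Kcnn2. It stood at 5.18, 5.17, 5.89 and 7.70 in vehicle GFP- and at 3.86, 3.21, 3.96 and 3.28 in vehicle GFP+ pools (-2.41 ± 0.45, adjusted p = 0.000807). Under odor they were 5.39, 5.93, 4.74 and 6.36 against 3.97, 3.36, 4.27 and 3.70 (-1.78 ± 0.45, adjusted p = 0.0104), and the call was lost without odor pool 2 or 4 (adjusted p = 0.0934 and 0.0936). Only the GFP- array of vehicle pool 4 lay above its floor. On that array the erythroid genes Slc4a1 (12.83) and Alas2 (11.04) and the myeloid genes Lyz2 (17.27) and S100a8 (16.50) also had their highest values of the 16 arrays. The immune marker Csf1r did not: it stood at 8.39 there and at 8.79 in odor GFP- pool 4. The other vehicle GFP- arrays had Slc4a1 at 9.81 to 11.24 and Lyz2 at 14.15 to 15.82; the part of these cells in the Kcnn4 signal was not tested.

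**Figure D3:**
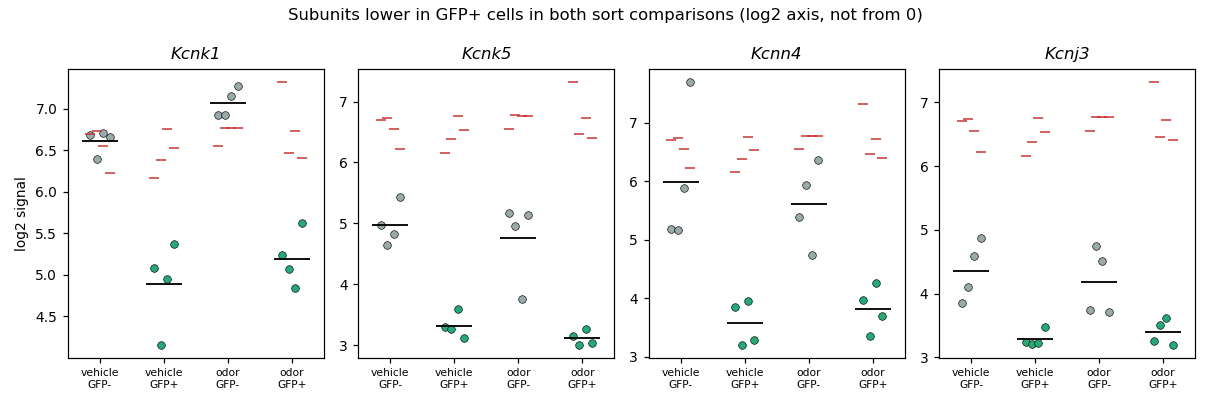
Log2 signal of the 4 subunits called lower in GFP+ cells in both treatments, on each of the 16 arrays (points, GFP- in grey and GFP+ in green), with group means as black bars and each array's background floor as red dashes; the log2 axes do not start at 0. Nearly all points lie under the floor, apart from 6 GFP- arrays for Kcnk1 and 1 for Kcnn4.

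Among 15 inward rectifiers, 1 was lower in vehicle (6.67%, against 9.86% of all probe sets) and 2 in odor (13.3%, against 9.56%), shares near the background, and none was higher (against 5.83% and 5.29%). Kcnj3, a G protein-gated subunit, lay under the floor on all arrays and stood at 3.85 to 4.88 in vehicle GFP- and 3.21 to 3.48 in vehicle GFP+ pools (-1.07 ± 0.25, adjusted p = 0.00581). In odor the difference was -0.79 ± 0.25 (adjusted p = 0.0434), a call lost in 10 of 17 alternatives, among them those without any 1 odor pool (adjusted p from 0.0627 to 0.189), without vehicle pool 2 or 3 (0.0616 and 0.0569) and with arrays centred (-0.44, adjusted p = 0.151). Kcnj13, a channel of pigment epithelium and other transporting epithelia, was lower in odor (-1.16 ± 0.30, adjusted p = 0.013), with 3 pools at -1.50 to -1.61 and odor pool 1 at 0.06; the call was lost without odor pool 3 or 4 (adjusted p = 0.0897 and 0.0801). In vehicle Kcnj13 differed by -0.80 ± 0.30 (adjusted p = 0.0866).

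Kcnj2, a classical strong rectifier that sets resting potential, was the only inward rectifier above the floor on every array. It stood at 9.96, 8.64, 8.63 and 8.63 in vehicle GFP-, 10.20, 9.16, 9.33 and 9.33 in vehicle GFP+, 9.81, 8.73, 8.95 and 8.95 in odor GFP- and 10.24, 9.45, 9.46 and 9.53 in odor GFP+ pools 1 to 4. The arrays numbered 1 were therefore the highest of each group, at 9.81 to 10.24 against 8.63 to 9.53 on the other 12. Within every pool GFP+ exceeded GFP-, by 0.24 to 0.70 in vehicle and 0.43 to 0.72 in odor, but with this spread the differences of 0.54 ± 0.32 and 0.56 ± 0.32 did not pass (adjusted p = 0.302 and 0.293). With the pool as a fixed block in limma, which compares the fractions of the same mice, both passed (adjusted p = 0.0332 in vehicle and 0.028 in odor).

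Of 17 auxiliary subunits, Kcnmb3 was called higher in vehicle (5.88%, against 5.83% of all probe sets) and none lower (against 9.86%). In odor Kcnmb3 and Kcnrg were higher (11.8%, against 5.29%) and Kcnip3 lower (5.88%, against 9.56%). Kcnrg, a soluble regulator of Kv assembly, stood at 5.82 to 6.60 in odor GFP- and 6.63 to 7.47 in odor GFP+ pools (0.96 ± 0.29, adjusted p = 0.0335), with 1 of 4 GFP- arrays above the floor and 0.38 left after raising the others to it. The call was lost without any 1 odor pool (adjusted p from 0.0507 to 0.213). In vehicle Kcnrg differed by 0.75 ± 0.29 (adjusted p = 0.0991). Kcnip3, a calcium-binding Kv partner under the floor on all arrays, was lower in odor by -0.94 ± 0.31 (adjusted p = 0.0491), not without any 1 odor pool (adjusted p from 0.0677 to 0.198), without vehicle pool 1 or 3 (0.0653 and 0.0684) or with arrays centred (-0.59, adjusted p = 0.112). In vehicle its difference of -0.88 ± 0.31 (adjusted p = 0.0647) passed with the pool as a fixed or random block (0.0237 and 0.0321). Kcnab2, the bright cytoplasmic beta subunit of Shaker-type channels, was higher in GFP+ cells in all 8 pools and did not pass (0.47 ± 0.22, adjusted p = 0.164 in vehicle; 0.65 ± 0.22, adjusted p = 0.0507 in odor). In odor it passed with the pool as a fixed or random block (0.012 and 0.0214).

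The odor comparisons asked whether subunits differ between mice given 2-hexanone and filtered air. None of the 89 was called in GFP+ cells (0.00901% of all probe sets were called higher and 0% lower), in GFP- cells (0% and 0%) or for the change of the sort difference with odor (0.00901% and 0%), and none under any alternative. At an unadjusted p below 0.05 in limma there were 7, 1 and 3 subunits (7.87%, 1.12% and 3.37%, against 3.91%, 2.46% and 2.93% of all probe sets). Differences ran from -0.64 to 0.62 in GFP+ cells, with a median of 0.04, and from -0.71 to 0.51 in GFP- cells, with a median of 0.00. In GFP+ cells 3 subunits had all odor arrays above all vehicle arrays (3.37%, against 1.01% of all probe sets) and 1 had them all below (1.12%, against 1%). In GFP- cells these were 3 (3.37%, against 0.941%) and 0 (against 0.833%).

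**Figure D4:**
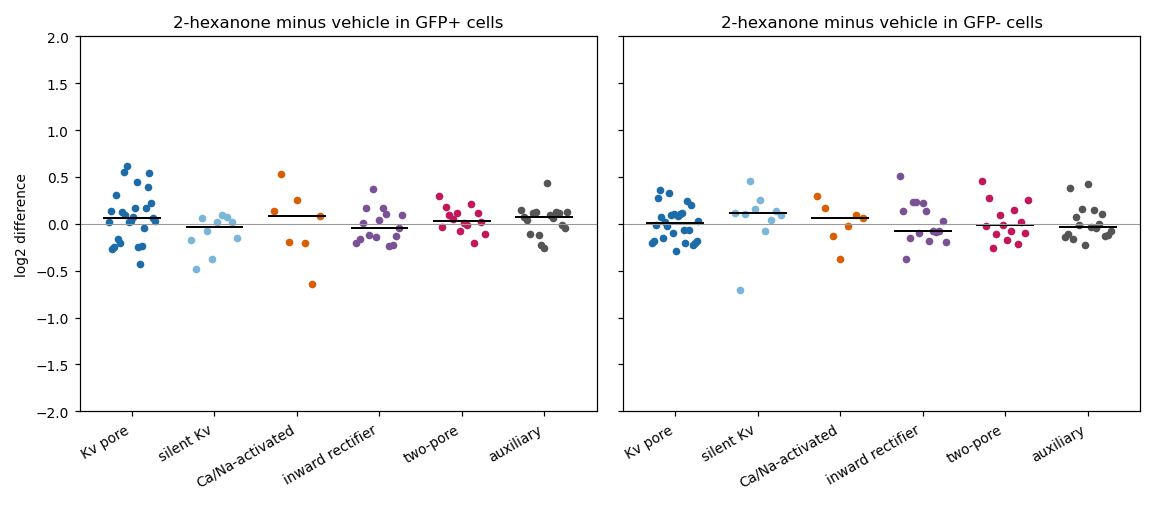
Log2 difference 2-hexanone minus vehicle of each of the 89 subunits (points), by channel class, in GFP+ cells (left) and GFP- cells (right); black bars are class medians. The points lie between -0.64 and 0.62 in GFP+ cells and between -0.71 and 0.51 in GFP- cells, and none passed the test.

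Kcnn2 was among the subunits without overlap in GFP+ cells, where odor arrays ran from 12.53 to 13.18 and vehicle arrays from 12.08 to 12.52. The difference was 0.53 ± 0.19 (unadjusted p = 0.0115, adjusted p = 1), and in GFP- cells it was 0.17 ± 0.19 (unadjusted p = 0.367). The change of its sort difference, 0.36 ± 0.27, had an unadjusted p of 0.197. Kcnc2 had the lowest p in GFP+ cells (2.75 to 3.22 in vehicle and 3.38 to 3.80 in odor, 0.62 ± 0.17, unadjusted p = 0.00206, adjusted p = 1), followed by Kcnn2 and Kcnh1 (0.45 ± 0.17, unadjusted p = 0.0182). Kcnc2 and Kcnh1 lay under the floor on every array. In GFP- cells the lowest p values were those of Kcng3 (0.46 ± 0.20, unadjusted p = 0.0381), Kcnip1 (0.42 ± 0.20, 0.0562) and Kcna4 (0.36 ± 0.18, 0.0643), and for the change those of Kcnip1 (-0.68 ± 0.29, 0.0319), Kcnc2 (0.53 ± 0.24, 0.0432) and Kcnh8 (0.77 ± 0.36, 0.0443), all under the floor throughout and with adjusted p = 1. Kcnmb3 did not differ beyond its spread: -0.01 ± 0.29 in GFP+ and -0.13 ± 0.29 in GFP- cells, and 0.11 ± 0.41 for the change.

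Genes that work with these channels were listed separately. Of 12 measured partners, Hcn4 (0.83 ± 0.21, adjusted p = 0.0106) and Hcn2 (0.50 ± 0.16, adjusted p = 0.046) were higher in vehicle (16.7%, against 5.83% of all probe sets) and none was lower (against 9.86%). Both encode hyperpolarisation-activated cation channels. The Hcn4 call was lost with only the compared arrays in the fit (adjusted p = 0.0536). The Hcn2 call was lost without vehicle pool 1, 2 or 4 (adjusted p = 0.141, 0.216 and 0.171) or odor pool 2, 3 or 4 (0.0696, 0.0632 and 0.0546), and with the pool as a fixed block (0.0569). In odor Amigo1, an auxiliary protein of Kcnb channels, was the 1 partner called (8.33%, against 5.29% of all probe sets; 0.82 ± 0.22, adjusted p = 0.017), a call lost without odor pool 2 or 4 (adjusted p = 0.0642 and 0.125). In vehicle Amigo1 differed by 0.61 ± 0.22 (adjusted p = 0.0755). The list's median difference was 0.29 in vehicle and 0.20 in odor, against 0.14 over all probe sets.

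Of 35 voltage-gated sodium and calcium channel subunits, 5 were higher in vehicle (14.3%, against 5.83% of all probe sets), 3 in odor (8.57%, against 5.29%) and none lower in either (against 9.86% and 9.56%). The list medians were 0.28 and 0.30. Scn4b, a sodium channel beta subunit, stood at 13.78 to 14.61 in vehicle GFP- and 15.08 to 15.65 in vehicle GFP+ pools (1.04 ± 0.19, adjusted p = 0.000617), and differed by 1.09 ± 0.19 in odor (adjusted p = 0.000368). Cacng5 (1.02 ± 0.25, adjusted p = 0.00666) and the sodium channel pore Scn1a (1.00 ± 0.25, adjusted p = 0.00789) were higher in vehicle with all arrays under the floor. Cacng5 lost its call without vehicle pool 4 (adjusted p = 0.0877) and Scn1a without vehicle pool 2 (adjusted p = 0.0646).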

How the data were processed

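Biotinylated cRNA from 50 to 100 ng of total RNA per sample was hybridised to Clariom S mouse arrays, per the labels' protocols. Per the submitters' processing notes, the authors made the deposited log2 values per probe set in Affymetrix Expression Console. How they summarised and normalized, and on which annotation, is not given in the sources used here. Of 28846 probe sets, 6640 control rows were left out and 22206 tested (19572 with 1 symbol, none with several, 2634 without). All 89 subunits matched the GRCm38.p6 gene table. R 4.3.3 and limma 3.58.1 fitted 4 group means over 16 arrays, with Benjamini-Hochberg adjustment over all probe sets. The fit was tested on simulated data. Plots used Python 3.11.15 and matplotlib 3.10.9.

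GFP+ and GFP- arrays of a pool share mice, by the labels; their deviations from group means correlated at 0.0136 to 0.425 over pools (consensus 0.171), and blocked values are given where they change a call. The arrays numbered 1 deviated together (0.419 between GFP+ and 0.354 between GFP- arrays of both treatments), so a fit without them was added after seeing the data.

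The members and lists were chosen with earlier results of these data known. Named were Kcnmb3, Kcnn2, the 8 highest and 8 lowest called subunits of each sort, the 3 of lowest p in each odor comparison, and up to 3 called genes each way from the partner and the sodium and calcium channel lists in vehicle. Outside this rule, and chosen after their values were seen, are Kcna2, Kcna5, Kcnc1, Kcnc4, Kcnd1, Kcnf1, Kcnh4, Kcnq1, Kcnab2, Kcnj2, Kcnk10, Kcnmb2, Kcnmb4, Kcnn1, Kcns3, Amigo1, and Kcnc2 in the odor sort. Some listed markers and partners are not reported here. Basal markers were lower in GFP+ cells for 2 of 5 in both treatments, endothelial and stromal ones for 3 of 6 in vehicle and 4 of 6 in odor, and of 3 glial ones none was lower and 1 higher in odor.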

Additional observations from a re-analysis of the deposited data

Results flagged for a closer look

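In 180 groups of 4 arrays (45 genes), 1 array stood apart from the other 3 in 11 groups by Dixon's criterion (the gap over the range), which chance meets in about 1 of 20 groups. Kcnj2 did so 3 times, each time through the array numbered 1: at 9.96 in vehicle GFP- (others 8.63 to 8.64), 10.20 in vehicle GFP+ (others 9.16 to 9.33) and 10.24 in odor GFP+ (others 9.45 to 9.53). Kcns3 was low in odor GFP+ pool 1, at 12.48 (others 12.88 to 12.92).

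The other arrays that stood apart were these. Kcnh4 was low in vehicle GFP- pool 4, at 13.69 (others 14.07 to 14.14). Kcnk10 was low in odor GFP+ pool 4, at 13.35 (others all 13.52). Among values under the floor, Kcnk1 was low in vehicle GFP- pool 2, at 6.39 (others 6.66 to 6.71, of which 2 were above their floors), Kcnk5 low in odor GFP- pool 3, at 3.76 (others 4.95 to 5.17), Kcnj3 high in vehicle GFP+ pool 4, at 3.48 (others 3.21 to 3.24), Kcnj5 low in vehicle GFP- pool 3, at 5.29 (others 5.97 to 6.05), and Kcnu1 low in odor GFP+ pool 3, at 6.03 (others 7.13 to 7.34, above their floors). The change of the sort difference with odor was called for 0 of the 89 subunits.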

How the results depend on the processing

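Calls kept under every alternative in which the gene was tested were 4 of 10 higher in vehicle (Kcna6, Kcnh3, Kcnmb3 and Kcnn2), 4 of 5 lower (Kcnj3, Kcnk1, Kcnk5 and Kcnn4), 3 of 9 higher in odor (Kcng1, Kcnmb3 and Kcnn2) and 2 of 7 lower (Kcnk1 and Kcnk5). Leaving out each pool gave 6 to 11 higher in vehicle (6.74% to 12.4%, against 3.34% to 5.65% of all probe sets). It gave 4 to 5 lower (4.49% to 5.62%, against 7.86% to 9.75%). In odor 3 to 10 were higher (3.37% to 11.2%, against 3.16% to 5.37%) and 2 to 7 lower (2.25% to 7.87%, against 7.54% to 9.87%). Each such fit had fewer arrays. With arrays centred, 44 and 42 were higher in vehicle and odor (49.4% and 47.2%, against 40.5% and 38.4% of all probe sets), and 4 lower in odor (4.49%, against 7.76%). Leaving out the lowest 40% of probe sets, which removes dim subunits, left 33 subunits. Of these 7 were higher in vehicle (21.2%, against 9.93% of the probe sets kept) and 10 in odor (30.3%, against 9.51%). Lower were 1 in vehicle (3.03%, against 13.9% of the probe sets kept) and 2 in odor (6.06%, against 13.5%). Without the pools numbered 1, 4 were lower in odor (4.49%, against 8.39% of all probe sets). The cause was not tested. With the pool as a random block, 12 were higher in vehicle (13.5%, against 8.39%) and 6 lower (6.74%, against 10.9%). In odor this block gave 11 higher (12.4%, against 7.81%) and 8 lower (8.99%, against 10.6%). As a fixed block the pool gave 10 higher (11.2%, against 7.16%) and 6 lower (6.74%, against 10.4%) in vehicle. In odor it gave 8 higher (8.99%, against 6.83%) and 8 lower (8.99%, against 10%). With the replicate number as a block, the odor comparisons called 0.

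The odor difference of Kcnmb3 turned sign within its error: in GFP+ cells it was 0.19 with array weights, 0.17 and 0.06 without odor pool 1 or 3, 0.09 and 0.16 without vehicle pool 1 or 3, and 0.27 without the pools numbered 1; leaving out single pools gave -0.19 to 0.17. In GFP- cells it was 0.01 without odor pool 1, 0.03 without vehicle pool 3 and 0.09 without the pools numbered 1, and from -0.35 to 0.03 without single pools. Raising arrays to the floor left -0.47 for Kcnn4 in vehicle and -0.24 and -0.34 for Kcnk1; it gave no value where both groups lay under it. Over the alternatives for the 28 genes named by the rule given above, 731 values stayed the same, 86 no longer passed, 9 turned sign and 4 moved. The same were values that kept their direction and side of the threshold, passing or not. Values with arrays raised to the floor have no test. They were the same within the larger group standard deviation of the difference, and moved otherwise. Genes and comparisons named outside that rule are not in these counts.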

Other observations

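Kcnmb3 and Kcng1 varied together between pools, a pattern seen after the values were examined. In vehicle, pools 1 and 3 were the higher ones for both genes in both fractions; in odor, pools 2 and 4 were the higher ones for Kcnmb3 in both fractions and for Kcng1 in both fractions. In GFP+ cells of vehicle pools 1 to 4, Kcnmb3 stood at 14.88, 14.29, 15.08 and 14.03 and Kcng1 at 9.46, 8.55, 9.58 and 8.47. In odor pools, Kcnmb3 stood at 14.01, 14.87, 14.35 and 14.99 and Kcng1 at 7.55, 8.80, 8.59 and 9.22. The 8 pools fall into separate sets for Kcnmb3, so no correlation is given.

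Pools held mice of both sexes in proportions that the labels do not give, and the Y-linked gene Eif2s3y also differed between them. In GFP+ cells it stood at 7.33, 9.39, 8.16 and 10.65 in vehicle pools 1 to 4 and at 8.24, 9.99, 8.36 and 10.95 in odor pools. Its high pools were 2 and 4 in both treatments, which were the low Kcnmb3 pools in vehicle and the high ones in odor. Its part in these values was not tested.

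How often the array numbered 1 stood at an end of its group was not counted over all probe sets or for dimmer subunits. Among the 17 subunits above the floor on every array, it was the highest in all 4 groups for Kcna2, Kcnab2 and Kcnj2. For Kcnn1 it was the lowest in all 4. For Kcnk10 it was the highest too, except that in odor GFP+ cells pools 1, 2 and 3 all stood at 13.52.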
